A study of Mus musculus with 4 samples.

Results

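The Krüppel-like factor (KLF) genes of mouse macrophages are described here across 4 culture conditions. The members are Klf2, Klf3, Klf4, Klf6, Klf7, Klf9, Klf10, Klf11 and Klf13. They were taken by name, with earlier results of these data known, and each was read from its single probe. They are 9 of the 19938 genes that the array measured under 1 symbol, and 9 of the 17 KLF genes among these. Total RNA came from bone-marrow-derived macrophages of female BalbC mice (their age is not stated here), differentiated over 7 days with medium from L929 cells, which supplies macrophage colony stimulating factor (M-CSF). The Control cells had no treatment, the LPS cells had lipopolysaccharide (a bacterial ligand of the receptor TLR4) at 10 ng/ml, the LPS/zVAD cells had the same LPS with the caspase inhibitor zVAD at 50 µM, and the LPS/zVAD/Nec-1 cells had LPS and zVAD with 30 µM of Nec-1, necrostatin-1, which blocks the kinase RIPK1. Each condition had 1 Affymetrix array, so no test was possible, no spread between replicates is known, and the number of arrays limits the precision. On these arrays zVAD was given only with LPS and Nec-1 only with both, and the length of treatment is not given in the labels used. The design compares the arrays to find inflammatory changes that need RIPK1 kinase activity, and here it is read for the KLF genes.

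KLF proteins are transcription factors that bind GC-rich and CACCC sequences in promoters through C2H2 zinc fingers at their carboxyl end, while their amino ends differ and recruit activators or repressors. In myeloid cells KLF2 and KLF4 are known to restrain inflammatory gene expression, KLF4 also takes part in monocyte differentiation and in alternative activation of macrophages, and KLF6 is known to favour inflammatory gene expression. KLF3 is a repressor that works with the corepressor CtBP, KLF10 and KLF11 are early response genes of TGF-beta that recruit the corepressor Sin3, and KLF9 is a target of the glucocorticoid receptor.

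Promoter windows are shown because Klf9 and Klf4 had their highest signal on the same array, Klf3 had its lowest there, Klf6 had the highest ratio to Control with LPS alone, and the Klf2 window held a MEF2 site. RefSeq windows on GRCm38.p6, the reference of strain C57BL/6J, were found for 8 of the 9 members. Each run is the 250 bases before the annotated start of the gene, 5′ to 3′ in the direction of the gene. Capitals mark GC boxes (GGGCGG), AP-1 motifs (TGANTCA), MEF2 sites and the TGACG part of a CRE, on either strand.
Klf9, chr19:23140976-23141225, plus strand: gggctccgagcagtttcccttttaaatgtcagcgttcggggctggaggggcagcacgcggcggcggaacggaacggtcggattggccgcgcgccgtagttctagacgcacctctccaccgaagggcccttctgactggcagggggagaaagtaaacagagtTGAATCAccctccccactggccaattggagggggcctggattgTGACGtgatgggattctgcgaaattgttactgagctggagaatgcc
Klf4, chr4:55532476-55532725, minus strand: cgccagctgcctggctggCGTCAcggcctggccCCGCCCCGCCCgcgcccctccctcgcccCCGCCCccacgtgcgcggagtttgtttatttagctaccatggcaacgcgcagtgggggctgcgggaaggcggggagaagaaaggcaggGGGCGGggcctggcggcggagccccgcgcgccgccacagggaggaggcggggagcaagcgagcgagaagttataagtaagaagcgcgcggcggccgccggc
Klf3, chr5:64803271-64803520, plus strand: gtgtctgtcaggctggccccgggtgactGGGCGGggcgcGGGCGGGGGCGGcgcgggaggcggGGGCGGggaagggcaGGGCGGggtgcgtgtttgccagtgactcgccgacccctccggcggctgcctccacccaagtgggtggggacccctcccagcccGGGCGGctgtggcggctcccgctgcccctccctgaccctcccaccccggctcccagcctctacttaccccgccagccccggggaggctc
Klf6, chr13:5861239-5861488, plus strand: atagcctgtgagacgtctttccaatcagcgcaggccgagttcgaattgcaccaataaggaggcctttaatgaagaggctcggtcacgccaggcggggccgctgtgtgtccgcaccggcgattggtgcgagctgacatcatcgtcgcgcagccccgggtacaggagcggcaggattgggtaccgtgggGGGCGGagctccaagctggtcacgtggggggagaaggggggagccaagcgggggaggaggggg
Klf2, chr8:72318812-72319061, plus strand: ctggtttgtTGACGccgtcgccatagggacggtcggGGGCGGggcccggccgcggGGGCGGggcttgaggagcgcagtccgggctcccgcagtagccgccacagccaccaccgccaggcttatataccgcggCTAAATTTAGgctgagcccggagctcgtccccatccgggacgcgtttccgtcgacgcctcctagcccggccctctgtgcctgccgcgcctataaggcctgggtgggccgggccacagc

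The Klf9 window differed from those of the other 7 members in the GC box and the AP-1 motif. It held no GC box, while the windows of the other 7 members each held at least 1. Lacking it was the more common case among all windows, since 32.7% of all 32851 promoter windows of this length held a GC box. Klf9 alone among the 8 windows held an AP-1 motif, from base -89 to base -83 before the start, which 6.75% of all windows held. A TGACG lay at bases -46 to -42 of Klf9, and the windows of Klf2, Klf4 and Klf13 held it too, against 17.8% of all windows. CACCC, the other KLF-type letters, occurred in 5 of 8 windows against 52.0% of all, and in Klf9 it overlapped the AP-1 motif by 2 bases. A MEF2 site stood in Klf2 at bases -118 to -109, against 2.92% of all windows. The full CRE (TGACGTCA, which contains TGACG), the TATA box (TATAAA), the CArG box and the NF-kB site had 0 matches in the 8 windows, against 1.55%, 12.4%, 1.47% and 7.25% of all windows. The windows of the members were GC-rich, at 59.2% (Klf7) to 78.4% (Klf3), beside a median of 52.4% over all windows. A match is only a match of letters, and nothing follows from one, or from its absence, about the binding of a factor.

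All values below are log2 signals, so a difference of 1 is 2-fold, and counts of genes "higher" or "lower" take a difference of at least 2-fold between single arrays. Counts cover the 12203 genes whose strongest array reached log2 6.47, the median of all values. All 9 members passed, and each lay above that level on all 4 arrays. Signals of different probes cannot be ranked against one another, so levels are compared across conditions within a gene. On these bulk arrays, fewer cells of a type and less RNA per cell cannot be told apart. The macrophage markers Adgre1, Csf1r, Cd68, Itgam, Lyz2, Mertk and Fcgr1 were above the filter level on all arrays, 7 of 7, and the log2 of their summed linear signals lay between 15.58 and 15.83. Of the 6 genes taken as a check of LPS itself, Il6, Cxcl10, Nos2, Il1b and Tnf were higher with LPS than in Control. The remaining gene, Ifnb1, was under the filter level in Control (5.42) and barely at it with LPS (6.48), and counted from that level it was 1.01-fold apart. With zVAD against LPS, Ifnb1 and Tnf were higher (log2 ratios 5.14 and 1.13), and Ifnb1 was lower with Nec-1 added (-4.11) and above LPS with both inhibitors (1.03). Of the 7 macrophage markers Fcgr1 was higher with LPS, at 2.17, beside 8.24% of all genes.

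**Figure D1:**
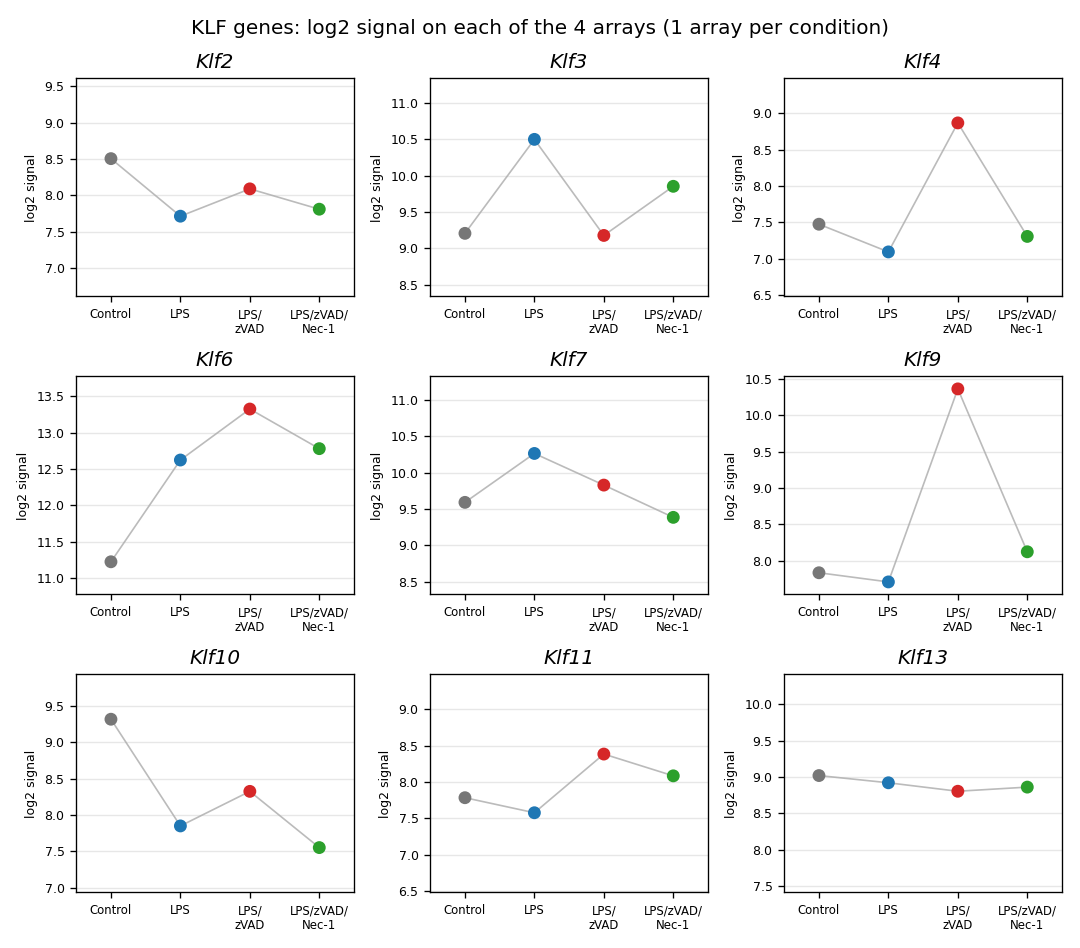
Log2 signal (vertical axis, the same span of 3 log2 units in every panel) of the 9 KLF genes on the arrays of the 4 conditions, from Control at the left to LPS/zVAD/Nec-1 at the right; each point is 1 array, and lines only join the points. Klf9 and Klf4 stand out on the LPS/zVAD array at 10.36 and 8.87, Klf3 peaks with LPS at 10.50, Klf10 is highest in Control at 9.32, and Klf13 stays between 8.80 and 9.02.

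LPS alone was set against Control to describe the members' place in the response to LPS. Klf6 and Klf3 were higher, Klf10 was lower, and the other 6 members were under 2-fold. Higher or lower were thus 3 of 9 members (33.3%), beside 15.4% of all 12203 genes (8.24% higher and 7.2% lower). The member median log2 ratio was -0.13 and that of all genes -0.12. The latter became -0.01 once the array medians were aligned, so a member's ratio in this comparison shifts by about that much with the scaling.

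The log2 signal of Klf6 was 11.23 in Control, and LPS brought it to 12.63, LPS/zVAD to 13.33 and LPS/zVAD/Nec-1 to 12.78. All 3 arrays with LPS were above Control, by 2.64-fold, 4.29-fold and 2.94-fold in that order, and these ratios share the Control array. Klf6 therefore differed from Control more than it differed among the treated arrays, where LPS/zVAD was 1.63-fold above LPS. The highest signal of any probe on the LPS/zVAD array was log2 14.63, so the 13.33 of Klf6 lay under the top of the scale. This does not rank the amount of Klf6 against other genes.

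Klf3 stood at 9.21 in Control and 10.50 with LPS alone, against 9.18 when zVAD was present and 9.85 when Nec-1 was present too. LPS gave the highest signal, 2.45-fold above Control. With zVAD the signal was back at that of Control, within 0.03, and with Nec-1 added it lay between.

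Klf10 had its highest signal in Control, at 9.32, against 7.85 for LPS, 8.33 for LPS/zVAD and 7.55 for LPS/zVAD/Nec-1. It was 2.77-fold lower with LPS and 3.40-fold lower with LPS/zVAD/Nec-1 than in Control. Against LPS/zVAD the difference from Control was 1.99-fold, just short of the threshold. Its related gene Klf11 was at 7.78 in Control and 7.58 with LPS, a log2 ratio of -0.21.

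Klf2, which in endothelium answers to flow and statins and in myeloid cells limits activation, had 8.51 in Control, 7.71 under LPS, 8.09 under LPS/zVAD and 7.81 under LPS/zVAD/Nec-1. Control was its highest array, and LPS was 1.73-fold lower, under the threshold. Klf7, a KLF known from neural development and fat cells, was at 9.59 in Control and 10.26 with LPS, 1.59-fold apart. For LPS against Control, Klf4, Klf9 and Klf13 had log2 ratios of -0.38, -0.13 and -0.10. The sign for Klf13 was not stable, since it became 0.0032 with centred arrays.

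zVAD with LPS was set against LPS alone to see what the caspase inhibitor added. Klf9 and Klf4 were higher and Klf3 was lower, again 3 of 9 members (33.3%), beside 6.83% of all genes (3.25% higher and 3.59% lower). Of all genes past the threshold in this comparison 47.5% were higher as deposited, and 57.8% after quantile normalization and 59.7% after cyclic loess. The member median log2 ratio was 0.48 and that of all genes -0.05, with 6 members above 0 and 3 below.

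Klf9 gave a log2 signal of 7.83 in Control and 7.71 for LPS, then 10.36 for LPS/zVAD and 8.12 once Nec-1 was added. The LPS/zVAD array stood alone, 6.30-fold above LPS and 5.78-fold above Control, while the other 3 arrays lay within 0.41 of one another. Its log2 ratio of 2.66 to LPS was the 38th highest of 12203 genes, and it kept between 2.61 and 2.76 over the 4 scalings of the arrays.

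Klf4 gave 7.47 in Control and 7.09 for LPS, then 8.87 for LPS/zVAD and 7.31 once Nec-1 was added. Here too LPS/zVAD was the high array, 3.42-fold above LPS and 2.63-fold above Control, and the other 3 lay within 0.38. The log2 ratio of 1.78 to LPS ranked 108th from the top and lay between 1.73 and 1.81 over the scalings.

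Klf3 ran the opposite way, 2.50-fold lower under LPS/zVAD than under LPS, the 142nd lowest ratio of 12203. Klf11 was at 8.38 with LPS/zVAD, its highest array, which is 1.75-fold above LPS. Klf6, Klf10 and Klf2 had log2 ratios of 0.70, 0.48 and 0.38, Klf7 one of -0.44 and Klf13 one of -0.12, which turned to 0.0081 after cyclic loess.

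**Figure D2:**
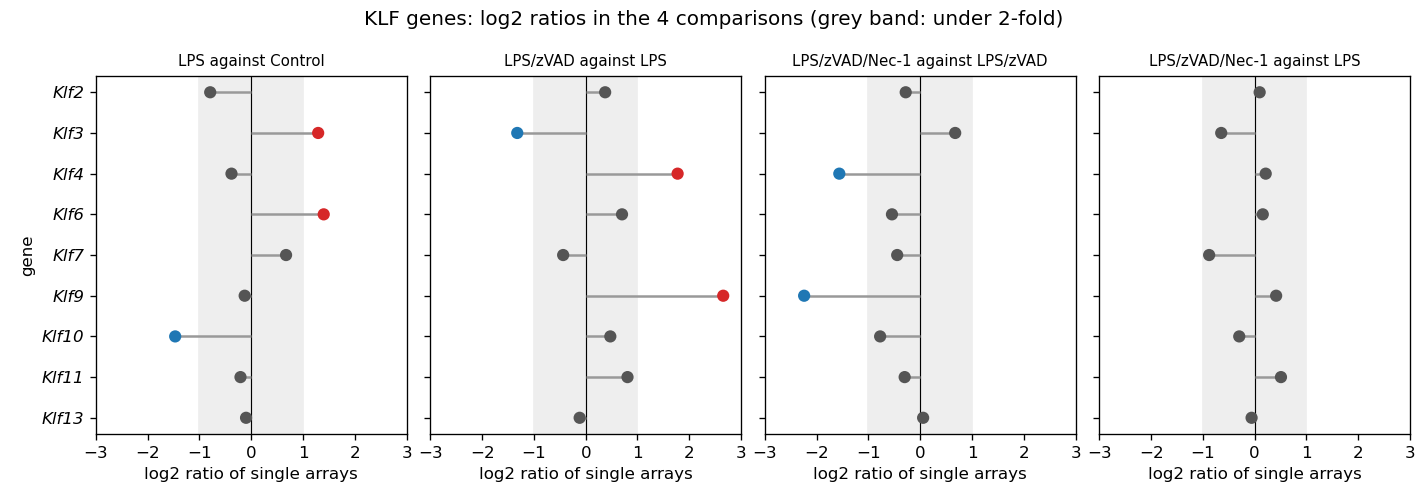
Log2 ratio between single arrays (horizontal axis) of each KLF gene (vertical axis) in the 4 comparisons named above the panels; the grey band is under 2-fold, red points are at least 2-fold higher and blue points at least 2-fold lower in the array named first. Klf9 and Klf4 lie at 2.66 and 1.78 for LPS/zVAD against LPS and at -2.24 and -1.56 for LPS/zVAD/Nec-1 against LPS/zVAD, and no point leaves the band for LPS/zVAD/Nec-1 against LPS.

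Nec-1 with LPS/zVAD was set against LPS/zVAD to see which of these differences remain when the RIPK1 kinase is inhibited. Klf9 and Klf4 were lower with Nec-1 and 0 members were higher, which is 2 of 9 (22.2%) beside 4.46% of all genes (3.32% lower and 1.14% higher). This comparison shares the LPS/zVAD array with the former, so a high signal on that array alone enters both with opposite sign. The member median log2 ratio was -0.44 and that of all genes 0.07.

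Klf9 was 4.73-fold lower with Nec-1 (log2 10.36 and 8.12), the 38th lowest ratio of 12203. Klf4 was 2.95-fold lower (8.87 and 7.31), the 116th lowest. Measured on the log2 scale from LPS, 15.6% of the zVAD difference of Klf9 was left with Nec-1 (13.0% to 17.8% over the 4 scalings) and 12% of that of Klf4 (8.0% to 12%). For Klf3, which was 1.60-fold higher with Nec-1, 48.9% was left (47.2% to 52.7%).

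The remaining members were under 2-fold. Klf10 had a log2 ratio of -0.77 and was lowest of its 4 arrays with Nec-1, at 7.55. Klf6 was at -0.55, Klf7 at -0.44, Klf11 at -0.30 and Klf2 at -0.28. Klf13, at 0.06, turned to -0.02 after cyclic loess.

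Both inhibitors with LPS were set against LPS alone. Neither direction had a member at 2-fold, 0 of 9, beside 0.615% of all genes (0.0738% higher and 0.541% lower). Klf7 had the largest difference, 1.84-fold lower (log2 10.26 with LPS and 9.39 with both inhibitors), and 1.01% of genes were at least as far apart. Unlike Klf9 and Klf4, Klf7 was lower under LPS/zVAD than under LPS and lower still with Nec-1 added, with log2 ratios of -0.44 and -0.44 as deposited and -0.30 and -0.52 after cyclic loess. Klf3 was 1.56-fold lower, Klf11 1.42-fold higher (7.58 and 8.09) and Klf9 1.33-fold higher. Klf2, Klf4, Klf6, Klf10 and Klf13 had log2 ratios between -0.30 (Klf10) and 0.21 (Klf4), and that of Klf13, at -0.06, turned to 0.04 after quantile normalization.

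**Figure D3:**
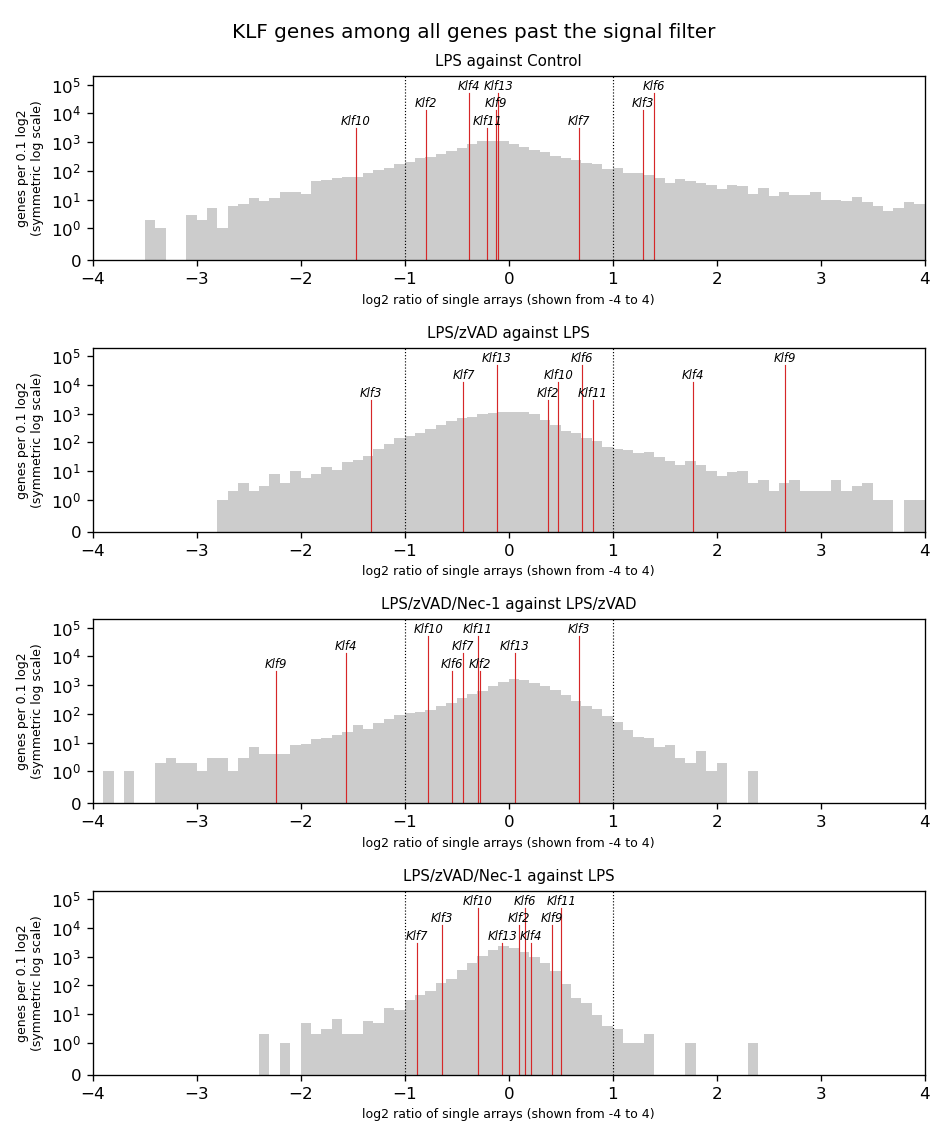
Number of genes per 0.1 of log2 ratio (grey bars, symmetric log scale) among the 12203 genes past the signal filter in the 4 comparisons, with red lines at the ratios of the 9 KLF genes and dotted lines at 2-fold; the horizontal axis is shown from -4 to 4. Klf9 lies in the thin right tail at 2.66 for LPS/zVAD against LPS and in the left tail at -2.24 for LPS/zVAD/Nec-1 against LPS/zVAD, and Klf13 lies near the centre of all panels.

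Order of the arrays within each gene sums up these patterns, though no spread is known against which to judge neighbours. LPS/zVAD was the highest array for Klf4, Klf6, Klf9 and Klf11, Control for Klf2, Klf10 and Klf13, and LPS for Klf3 and Klf7. For Klf13 the order was not stable, since Control was above LPS by 0.10 as deposited and below it by 0.0032 with centred arrays. The gap between the highest array and the next was 2.24 for Klf9 and 1.39 for Klf4, and under 1 for the other 7 members. The whole range over the 4 arrays ran from 0.22 (Klf13) to 2.66 (Klf9). After each gene was centred on its mean, the smallest root mean square difference between members was 0.27, for Klf2 and Klf13, and it was 0.42 for Klf4 and Klf9. This measure grows with the size of the differences, so a small value can come from members that vary little, as Klf13 did. It does not show that Klf2 and Klf13 share a pattern.

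The genes with the most similar profile were taken, for each member at least 2-fold apart in a comparison, as those with the smallest root mean square difference over the 4 centred log2 signals among 11697 named genes past the filter. For Klf9 they were Abl2, a tyrosine kinase gene (0.12; signals 8.13, 8.01, 10.41 and 8.23 in the order of the conditions), Rab15 (0.17) and Tspan13 (0.17), of which Rab15 was under the filter level on 3 arrays. For Klf4 they were Rybp, a Polycomb protein gene (0.03; signals 10.50, 10.16, 11.92 and 10.42), Bcar3 (0.06) and Lrrc8d, a subunit of volume-regulated anion channels (0.09). Klf3 was nearest to Rtn1 (0.06; 6.65, 8.02, 6.64 and 7.44), Rtl5 (0.06), which was under the filter level in Control and with LPS/zVAD, and Plxdc2 (0.07). Klf6 was nearest to Whamm, an actin nucleation factor (0.04; 7.80, 9.21, 9.98 and 9.32), Plekhf2 (0.06) and Creb5, a CRE-binding transcription factor (0.06). Klf10 was nearest to Ampd2, an AMP deaminase (0.05; 9.27, 7.91, 8.35 and 7.63), Nav1 (0.09) and Tfdp2, a partner of E2F factors (0.09). With only 4 arrays, many genes can share such a shape, and likeness is a description of these arrays.

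**Figure D4:**
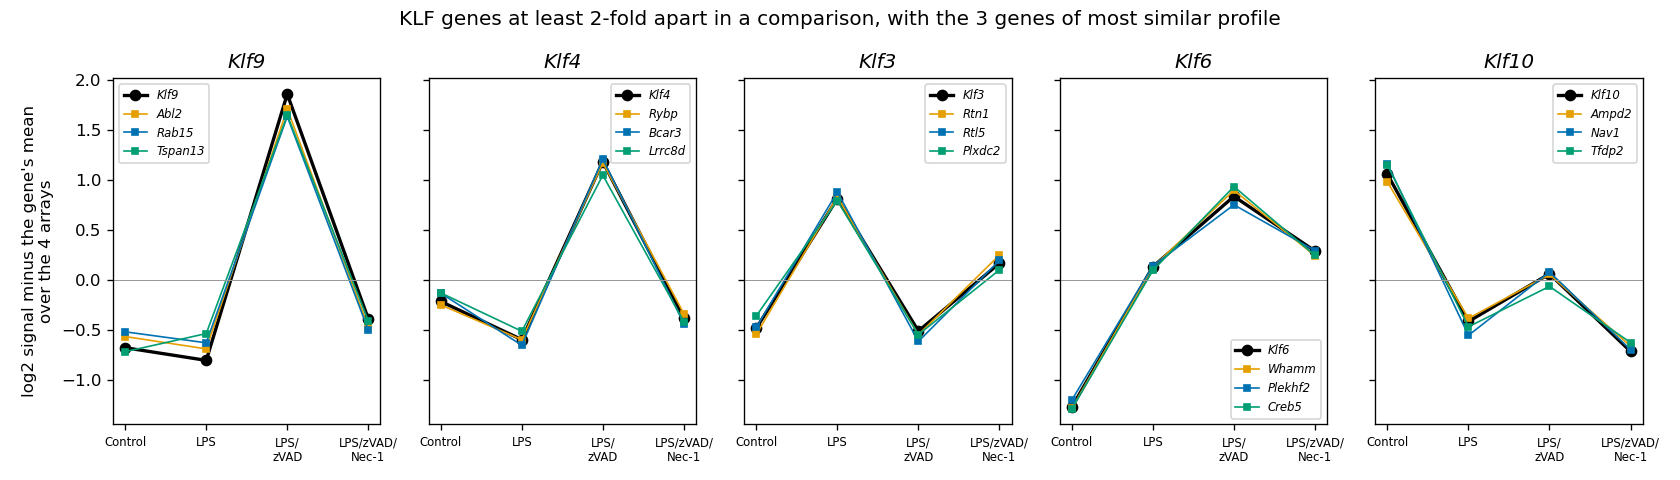
Log2 signal minus the mean over the 4 arrays (vertical axis) on the arrays of the 4 conditions for the 5 KLF genes at least 2-fold apart in a comparison (black) and the 3 genes of most similar profile (coloured). The root mean square difference to the nearest gene is 0.12 for Klf9 and 0.03 for Klf4. This measure grows with the size of the differences, and the range over the 4 arrays is larger for Klf9 (2.66) than for Klf4 (1.78).

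Among the 8 other measured KLF genes, 5 passed the filter, and of these Klf8 alone reached 2-fold in a comparison. Klf8, a repressor related to Klf3, was higher with LPS. Its signals were 7.06 in Control, 8.36 for LPS, 8.86 for LPS/zVAD and 8.54 for LPS/zVAD/Nec-1, so that Control was the low array, as for Klf6. Klf5, Klf14, Klf15 and Klf16 were under 2-fold in all 4 comparisons, and Klf1, Klf12 and Klf17 were under the filter level on every array. Over all 17 KLF genes, of which 14 passed the filter, 3 were higher and 1 lower with LPS, and 2 higher and 1 lower with LPS/zVAD against LPS. With Nec-1 added 0 were higher and 2 lower, and 0 were apart between LPS/zVAD/Nec-1 and LPS. Of all genes, 15.4%, 6.83%, 4.46% and 0.615% were higher or lower in these comparisons. The 9 members were chosen with earlier results of these data known, so their shares carry that choice and do not stand for the family. The SP genes, which encode the related GC-box factors, had 0 of 4 filtered members (8 measured) at 2-fold in any of these comparisons, and Sp3 had their largest zVAD ratio, -0.60.

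Partners of KLF proteins were measured for 12 of 12 listed genes. With zVAD, 2 were lower and 0 higher: Fhl3, a LIM protein that binds KLF3 (log2 11.81 with LPS and 10.65 with LPS/zVAD), and Sin3a, the Sin3 scaffold (8.69 and 7.56), with a list median of -0.26. With LPS, Kat2b, an acetyltransferase, was higher (log2 ratio 1.73) and Wwp1, a ubiquitin ligase of KLF2, lower (-1.79). Of all genes, 3.59% were lower with zVAD against LPS, and 8.24% were higher and 7.2% lower with LPS. On the array with Nec-1, 0 of the 12 were at 2-fold from either other array with LPS, with list medians of 0.23 against LPS/zVAD and -0.10 against LPS. Shares of all genes apart in either direction were 4.46% and 0.615% there. At such shares, 0 in a list of this size says little.

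The ERK5 and MEF2 arm, which drives Klf2 and Klf4 in endothelium, had 2 of 7 genes lower and 0 higher with LPS (list median -0.31), beside 7.2% of all genes lower. Mef2c stood at 10.97 in Control and 9.11 with LPS and Mef2a at 12.45 and 11.22, while Mef2d had a log2 ratio of -0.70, under 2-fold. With zVAD 0 of 7 passed 2-fold (median -0.15), Mef2a at 0.92 coming nearest. The same arm had 0 of 7 at 2-fold with Nec-1 against LPS/zVAD (median 0.02) and against LPS (-0.24). Among all genes, 6.83% were apart with zVAD, 4.46% with Nec-1 against LPS/zVAD and 0.615% against LPS. A count of 0 of 7 says little beside these shares.

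TGF-beta pathway genes, upstream of Klf10 and Klf11, were lower for 2 of 9 (7 past the filter) with LPS and higher for 0 (median -0.44): Smad3, a signal transducer (8.95 in Control and 6.97 with LPS), and Tgfbr1, a receptor kinase (10.81 and 9.54). Klf10 was lower on the same array, as were 7.2% of all genes. Between the treated arrays 0 of 9 passed 2-fold (medians 0.21, -0.17 and 0.04 for zVAD, for Nec-1 against LPS/zVAD and for both inhibitors against LPS). In the same order, 6.83%, 4.46% and 0.615% of all genes were apart, so 0 in this short list says little. Smad7, an inhibitor of the pathway that KLF10 is known to repress, was 1.87-fold higher with LPS/zVAD than with LPS and 1.86-fold lower with Nec-1 added.

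Glucocorticoid receptor targets were listed because Klf9 is one of them, and the list of 6 also holds the receptor gene Nr3c1. With zVAD 1 of 6 was higher, the kinase gene Sgk1 (9.02 with LPS, 10.79 with LPS/zVAD and 9.42 with Nec-1 added), which was also the 1 lower with Nec-1. Tsc22d3, Fkbp5, Per1 and Zbtb16 had zVAD ratios between -0.44 (Per1) and 0.42 (Tsc22d3), and the receptor gene Nr3c1 had 0.54. With LPS 1 of 6 was lower, Fkbp5 at -1.08 (list medians -0.14 for LPS, 0.23 for zVAD, -0.30 for Nec-1 against LPS/zVAD and -0.06 against LPS). Beside these counts, 3.25% of all genes were higher with zVAD, 3.32% lower with Nec-1 against LPS/zVAD and 7.2% lower with LPS.

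Genes reported as KLF targets elsewhere, 14 measured of 16 and 13 past the filter, differed in both directions. With LPS 4 were higher (Ccl5, Eng, Arg1 and Chil3, for which the bound set by the filter level is 1.53-fold) and 3 lower (Plau, Thbd and S1pr1), with a median of -0.07. Ccl5, a KLF13 target in T cells, stood at 6.99 in Control and at 14.19, 14.14 and 14.15 on the other arrays, while Klf13 hardly differed among the 4. Thbd and S1pr1, targets of KLF2, were at 7.16 and 10.14 in Control and 5.66 and 8.71 with LPS, and Thbd was under the filter level on all 3 treated arrays, so that it was at least 1.62-fold lower. With zVAD 1 of the 13 was higher, Plau, a target of KLF6 (9.46 and 13.14), and 0 were lower (median 0.13 over the 14 measured). Plau and Chil3 were the 2 lower with Nec-1 against LPS/zVAD (log2 ratios -2.43 and -1.04, list median -0.22). Plau was the 1 higher and Arg1, an enzyme of alternative activation, the 1 lower with both inhibitors against LPS (1.24 and -1.20, median -0.09).

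Immediate early genes were listed beside the KLF genes because several KLF genes respond as early. With zVAD 3 of 12 were higher (Egr1 at 2.86, Egr2 at 2.17 and Jun at 1.36, median 0.49) and the same 3 were lower with Nec-1 (-1.79, -1.58 and -1.18, median -0.61). Egr1 was at 9.99 with LPS/zVAD against 7.78 in Control, 7.13 for LPS and 8.20 once Nec-1 was added. With LPS alone 3 were higher, Junb, Atf3 and Ier3, at 1.88, 1.42 and 1.22 (median -0.03), and with both inhibitors against LPS Egr1 was higher, at 1.07 (median -0.11). Shares of all genes were 3.25% higher with zVAD, 3.32% lower with Nec-1 against LPS/zVAD and 8.24% higher with LPS. For both inhibitors against LPS, 0.0738% were higher.

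Markers of other cells were read beside these results. KLF2 and KLF4 are abundant in endothelium, and of 8 endothelial genes 3 were above the filter level on all arrays and Tek was under it on all. The log2 of their summed linear signals was 9.77 in Control, 10.88 for LPS, 10.41 for LPS/zVAD and 10.60 for LPS/zVAD/Nec-1. This sum followed few genes. Kdr (7.15 in Control and 9.99 with LPS), Pecam1 (log2 ratio 1.77) and Cdh5 (1.02, 1.96-fold when the filter level bounds it) were higher with LPS, while Tek, Tie1, Cldn5, Vwf and Egfl7 had ratios below 0, and the list median was -0.28. With zVAD against LPS Pecam1 was lower (8.13 and 6.98) and those 5 genes had ratios above 0, with a list median of 0.04. Among 8 stromal genes Dcn was higher with LPS, by at least 4.16-fold, and lower with zVAD (8.53 and 6.66), while Col1a1, Col1a2 and Col3a1 had zVAD ratios of 0.31, 0.32 and 0.29 and the list median was -0.07 (-0.18 with LPS). Of 8 neutrophil genes S100a9 and Ly6g were higher with LPS, at 1.12 and 1.03 (median 0.46). Beside the marker genes called here, 8.24% of all genes were higher with LPS and 3.59% lower with zVAD against LPS. At or above the filter level on all arrays were 8 of 8 neutrophil and 5 of 8 stromal genes. The same held for 1 of 5 B cell, 0 of 5 T cell and 0 of 2 erythroid genes. Reaching that level therefore does not mark macrophages alone. It was reached on at least 1 array by 12203 of all 19938 genes, and the share on all arrays was not counted. The stromal sum lay between 9.88 and 10.20, that of 8 neutrophil genes between 11.71 (Control) and 12.25 (LPS), and those of 5 B cell, 5 T cell and 2 erythroid genes measured between 8.52 and 9.23, 8.06 and 8.42, and 7.03 and 7.18. The part of these in the KLF values was not tested.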

How the data were processed

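Total RNA of the 4 macrophage cultures was hybridised to Affymetrix arrays, 1 per condition, and grouped by title. The deposited values are gene-level log2 signals that the authors made with Affymetrix Expression Console, as the submitters' processing notes name it. A log2 scale follows from their range, from 3.10 to 14.63. The background correction, summarisation, normalization between arrays and genome build are not stated in the labels used, and an unknown normalization can move every ratio. Array medians lay between 6.41 and 6.52.

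Of 35556 probes, 21789 had 1 symbol in the platform annotation, 1621 several and 12146 none. A gene was read from its probe with the highest mean, and genes whose highest signal was under log2 6.47 were left out of counts (7735 of 19938). Ratios are differences of log2 signals between single arrays, with a size threshold of 2-fold and no test. The 17 gene lists, of which the KLF members are 1, were chosen with earlier results of these data known. Of their 143 entries 134 were measured, and Smad7 stands in more than 1 list. All members are named. From the other lists, filtered genes past the threshold are named, up to 4 a comparison (5 for the check of LPS, with those under 2-fold by the filter level given as such). Sp3, Mef2a with zVAD, Mef2d, Smad7, markers under 2-fold, the further glucocorticoid targets, and genes beside Klf8 in the rest of the family were chosen after their values were seen. Counting was tested on simulated data. Alternatives were centred arrays, quantile normalization and cyclic loess (limma 3.58.1, R 4.3.3), the mean of probes, no filter, a 1.5-fold threshold, and low signals set to the filter level. Tables and motif searches used Python 3.11.15 and pandas 2.3.3.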

Additional observations from a re-analysis of the deposited data

How the results depend on the processing

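The 36 member ratios were recomputed under 5 alternatives, which gave 180 values. Of these, 0 changed side of the 2-fold threshold, the largest move was 0.14 on the log2 scale, and 4 changed sign, all for Klf13. Member counts were the same under centred arrays, quantile normalization, cyclic loess, the mean of probes, no filter and low signals set to the filter level. With a threshold of 1.5-fold in place of 2-fold, the members apart numbered 5 in place of 3 for LPS against Control, 5 in place of 3 for LPS/zVAD against LPS, 4 in place of 2 for LPS/zVAD/Nec-1 against LPS/zVAD and 2 in place of 0 for LPS/zVAD/Nec-1 against LPS. The genes apart among all filtered ones were then 3861 in place of 1884, 2578 in place of 834, 1891 in place of 544 and 426 in place of 75. The lower threshold itself admits more genes. All 9 members had 1 probe and lay above the filter level on all 4 arrays. The mean of probes, no filter and low signals set to the filter level therefore could not move them. Only the values under centred arrays, quantile normalization and cyclic loess bear on how stable the member ratios are. Leaving out an array was not possible with 1 per condition, and signal over background of single probes was not used here.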
